A study of Mus musculus with 63 samples.

Results

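The acetylcholine receptor genes described here are the 5 muscarinic receptor genes Chrm1, Chrm2, Chrm3, Chrm4 and Chrm5 and the nicotinic subunit genes Chrna3, Chrna4, Chrna5, Chrna7 and Chrnb2. They were found by symbol and make up 10 of the 20183 genes with an expression value. Each value is an FPKM, that is, fragments per kilobase of transcript, scaled to the depth of the cell, so levels can be compared between genes of different length. The question of the comparison was whether neurons of the mouse primary visual cortex (V1) that respond to light differ from neighbours that do not respond in the receptor mRNA they carry.

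All cells came from wild type C57BL/6 mice of 70 days. A calcium dye was imaged in layer 2/3 of lightly anaesthetised mice shown a drifting grating on a screen, the soma of a chosen neuron was drawn into a patch pipette, and its RNA was amplified by Smart-seq2, which copies whole transcripts of a cell into cDNA. The 46 light-sensitive (LS) cells responded to most repeats of the grating with a calcium signal and the 17 non-light-sensitive (NS) cells did not, and nothing else in the labels separates the groups. After the filters of the study had been applied to the values, 35 LS and 12 NS cells were kept. The labels tie no cell to a mouse, so each group was treated as 1 sample. No test between them was made, and every SD below is the spread between cells.

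Acetylcholine reaches the cortex from axons of the basal forebrain and acts there on receptors of both families. The muscarinic receptors couple to G proteins. Those encoded by Chrm1, Chrm3 and Chrm5 act through Gq and phospholipase C and make pyramidal neurons more excitable, while those of Chrm2 and Chrm4 act through Gi/o, lower cyclic AMP and often sit on axon terminals. Nicotinic receptors are cation channels of joined subunits. Channels made of Chrna4 and Chrnb2 and channels made of Chrna7 are the main cortical forms, Chrna5 can join the former, and Chrna3 is best known from autonomic ganglia.

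The reads behind the values were recovered from the steps between them. The kept LS cells held 366814 to 2509453 reads on the listed genes (median 873471) and the kept NS cells 153055 to 890797 (median 323469). The NS libraries stood apart in a further measure. Genes of odorant, vomeronasal and taste receptors, which cortical neurons are not known to use, reached a median of 38.1% (highest 193%) of the level that an even spread of all reads over all exons would give, against 2.57% (highest 29.3%) in LS cells. The neuronal gene Snap25 had a read in 32 of 35 LS cells and 5 of 12 NS cells. Of the other listed neuronal markers none was at 0 throughout either group, and the summed neuronal markers had a median of 678 FPKM (LS) and 2.22 FPKM (NS). Astrocyte markers summed to medians of 65.0 (LS) and 50.9 FPKM (NS), microglial markers to 61.1 and 12.4 FPKM. The means ran the other way, at 144 and 232 FPKM for astrocytes and 224 and 419 FPKM for microglia. Oligodendrocyte markers had medians of 8.53 and 1.68 FPKM and means of 13.9 and 112 FPKM. Among NS cells the highest sums were 2890 FPKM (microglia) and 1136 FPKM (oligodendrocytes). What part these features of the libraries have in the differences below was not tested.

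Cells were also parted by markers. A cell was called glutamate-marked where the FPKM of Slc17a7, the vesicular glutamate transporter, plus Neurod2 exceeded that of Gad1 plus Gad2, which make GABA, and GABA-marked in the reverse case. This gave 30 glutamate-marked, 4 GABA-marked and 1 unmarked LS cell, and 2 glutamate-marked, 6 GABA-marked and 4 unmarked NS cells. The 2 groups of cells thus differed in their makeup as well as in their response.

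**Figure D1:**
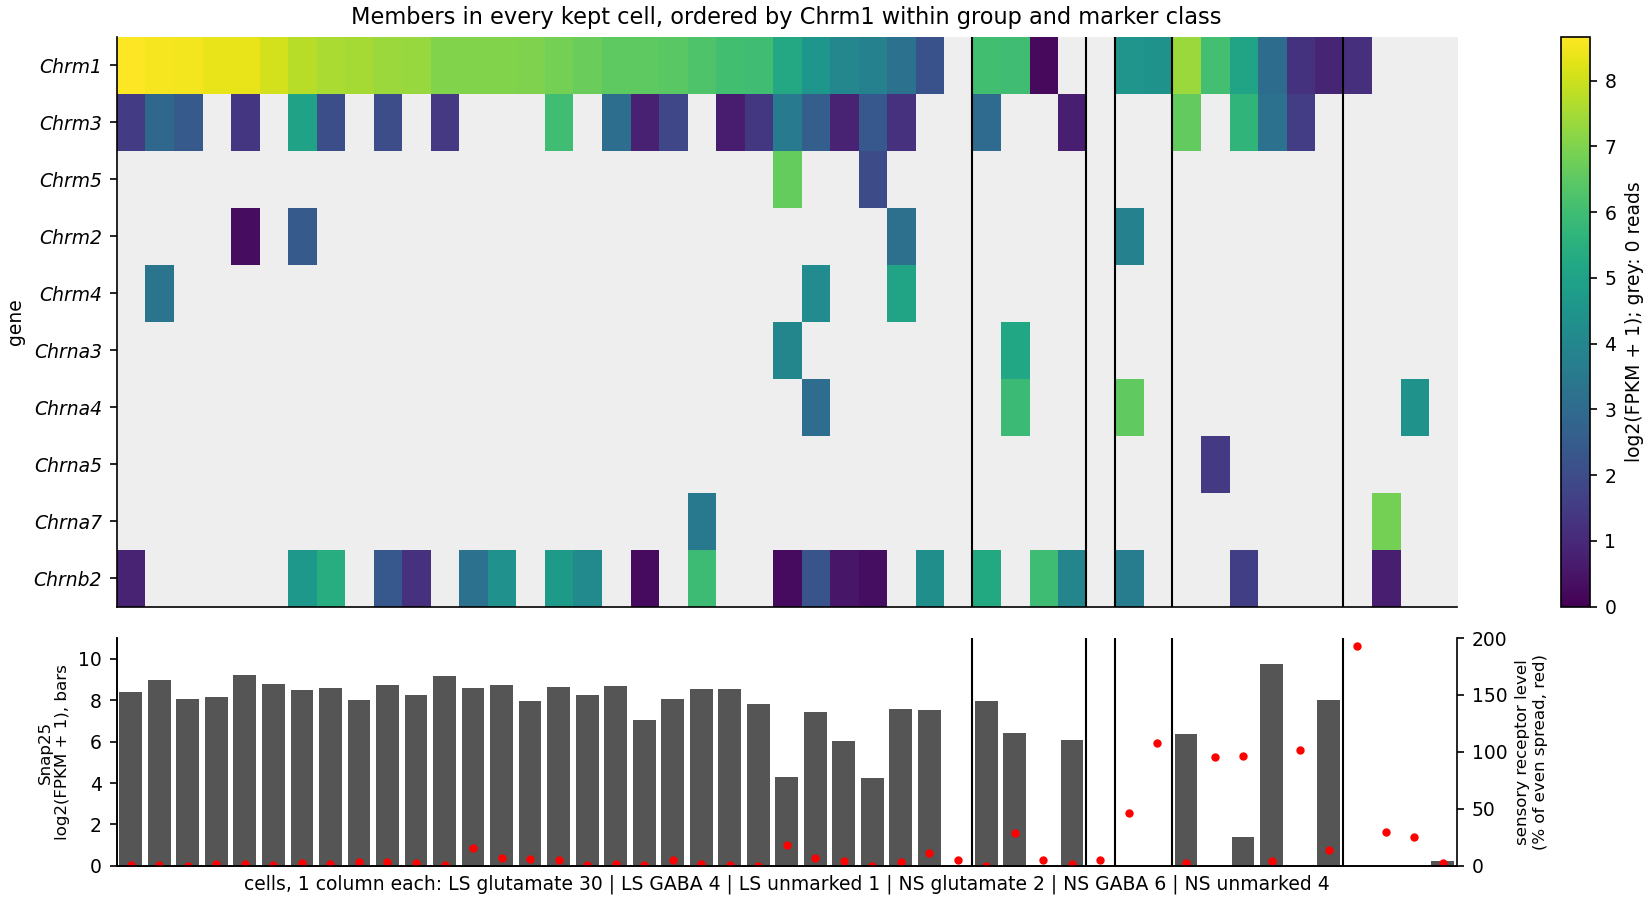
Each column is 1 of the 47 kept cells and each row of the upper panel a receptor gene, with colour for log2(FPKM + 1) and grey for no read; black lines part the response groups and marker classes. The lower panel gives Snap25 as bars on a log2(FPKM + 1) scale and the sensory receptor level of the same cells as red points in % of an even spread. Chrm1 fills 29 of the 30 glutamate-marked LS columns, whereas Chrm2, Chrm4, Chrm5, Chrna3, Chrna4, Chrna5 and Chrna7 appear in 1 to 4 cells each.

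A read can be assigned to a receptor gene only where its sequence is particular to that gene. In the GENCODE M21 transcripts of the build GRCm38, none of the 50-base windows of any member occurred in another member. The longest coding stretch that a pair of members shared was 29 bases, between Chrm1 and Chrm4, and the longest between nicotinic members was 23 bases, between Chrna3 and Chrnb2. These are shown because they are the places where a short read would be ambiguous, with the shared bases in capitals and 3 flanking bases on each side in lower case, of which the base next to the capitals differs.
Chrm1, coding bases 1111 to 1139: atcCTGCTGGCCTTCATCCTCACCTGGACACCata
Chrm4, coding bases 1216 to 1244: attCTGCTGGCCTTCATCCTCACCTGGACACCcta
Chrna3, coding bases 724 to 746: ctgTTCTACACCATCAACCTCATCATtcc
Chrnb2, coding bases 706 to 728: ctcTTCTACACCATCAACCTCATCATccc

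Outside the family, 14.2% of the 50-base windows of Chrnb2 also lay in Adar, whose exons run over the same place on the opposite strand. Libraries of this kind do not mark strand, so the source of a read there cannot be told apart. For Chrm1 the share was 4.32%, all of it in the small RNA gene Gm22820, for Chrm2 it was 1.51% and for Chrna3 0.825%. For Chrm3, Chrm4, Chrm5, Chrna4, Chrna5 and Chrna7 it was 0.

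Chrm1 had the highest mean of the 10 genes in both groups. It lies on chromosome 19 (chr19:8663789-8683587, plus strand), and its product, the M1 receptor, is the main Gq-coupled muscarinic receptor of cortical pyramidal neurons. Over the 35 LS cells its FPKM had a lowest value of 0, a median of 91.3 and a highest of 405, and 17 LS cells were above 100. Over the 12 NS cells the lowest was 0, the median 4.34 and the highest 162. The LS cells therefore reached higher, but the groups overlapped over the whole NS range. Chrm1 was read in 32 of 35 LS cells, or 91.4%, with an exact 95% binomial interval from 76.9% to 98.2%. In NS cells it was read in 9 of 12, or 75%, with an interval from 42.8% to 94.5%. At a common depth of 140000 reads these shares were expected to be 89.0% and 70.0%, so depth alone moved them little. Its mean was 126 ± 118 FPKM (SD, n = 35 cells) in LS and 26.2 ± 47.1 FPKM (SD, n = 12 cells) in NS cells, a ratio of 4.81 (log2 2.27). The 40432 reads in LS and 1043 in NS cells gave a pooled log2 ratio of 2.29, with a counting interval of 2.20 to 2.38. Such intervals cover counting error only, since PCR copies carry no molecular identifier, and say nothing of the spread between animals. The intervals of shares take cells as independent, although cells may share a mouse, and are no comparison of the groups.

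By this yardstick of a mean at least 2 times higher, 34.4% of the 15672 genes that averaged 1 FPKM or more over the kept cells were higher in LS and 36.8% were higher in NS cells, with a median log2 ratio of -0.10. Of the 8 members that reached this mean, 5 were higher in LS cells (Chrm1, Chrm4, Chrm5, Chrna3 and Chrnb2) and 3 in NS cells (Chrm3, Chrna4 and Chrna7). The other members, Chrm2 and Chrna5, were below 1 FPKM. A 2-fold gap was thus common among all genes, and the count alone does not set the receptors apart.

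**Figure D2:**
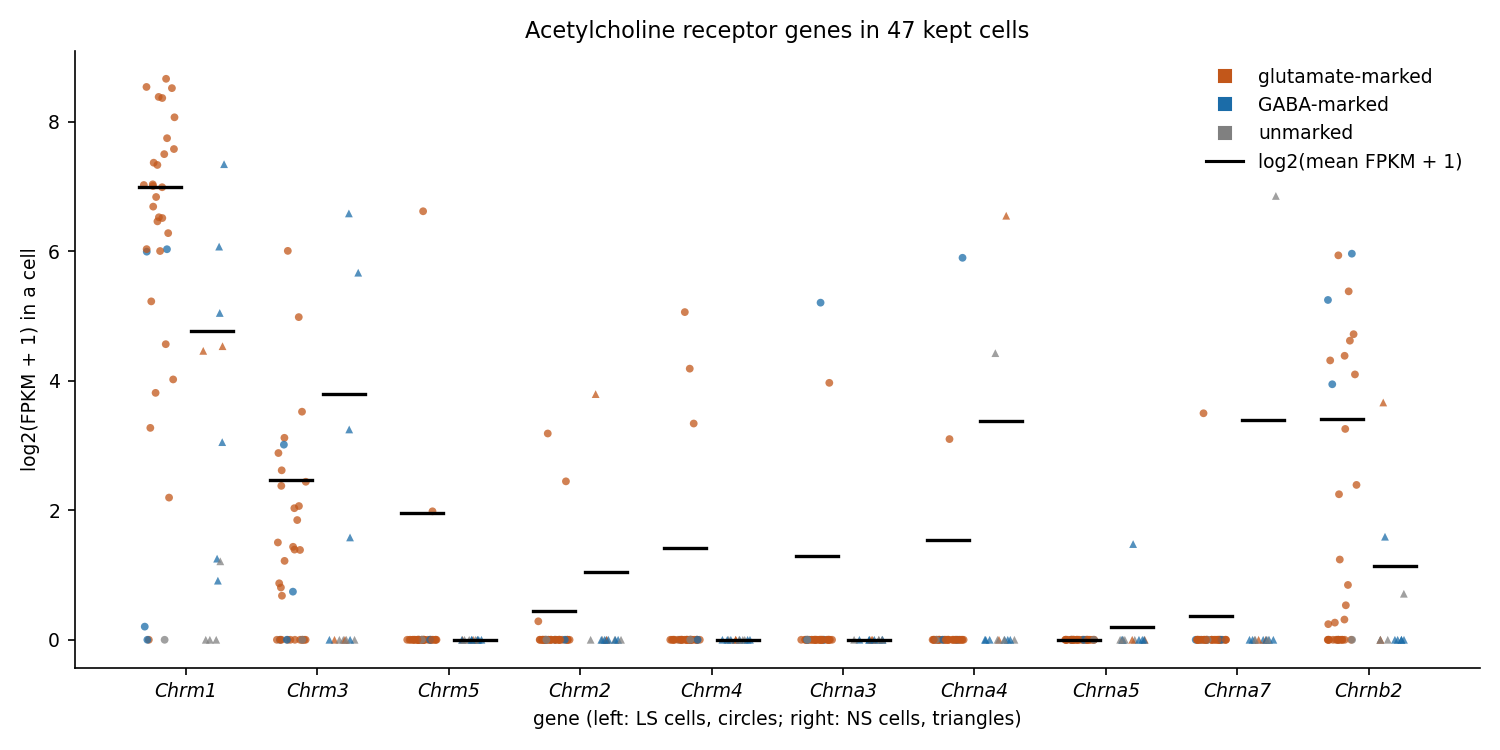
Values of the 10 genes in the 47 kept cells on a log2(FPKM + 1) scale, LS cells as circles on the left and NS cells as triangles on the right of each gene, coloured by marker class; black lines are log2 of the mean FPKM plus 1. The Chrm1 mean is 126 FPKM (LS) and 26.2 FPKM (NS), and most lines of the other genes are drawn up by 1 to 3 cells.

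Chrm1 differed between the groups among glutamate-marked cells, where 2 NS cells were set against 30 LS cells. In the 30 glutamate-marked LS cells it was read in 29, with a lowest value of 0, a median of 120 and a highest of 405 FPKM, and a mean of 143 ± 119 FPKM (SD). The 2 glutamate-marked NS cells had 21.1 and 22.2 FPKM. These 2 were weakly marked: cell NS_8 had 28.03 FPKM of Neurod2 beside 6.36 of Gad1, and cell NS_9 had 1.36 of Slc17a7 and 1.91 of Neurod2. Neither had a read of Snap25, and their sensory receptor levels were 108% and 46.6%. The log2 ratio within this class was 2.72, where the median of all genes was 1.16.

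Among GABA-marked cells no gap of this kind was seen. The 4 LS cells had 64.5, 62.8, 0.15 and 0 FPKM of Chrm1, a mean of 31.9 ± 36.7 (SD). The 6 NS cells had 162, 66.4, 32.1, 7.30, 1.38 and 0.88 FPKM, a mean of 45 ± 62.5 (SD). The 2 sets overlapped almost entirely, and the log2 ratio of -0.50 was below the 2-fold mark. Its sign rested on NS_16, without which it was 0.56, and the class medians were 31.5 FPKM (LS) and 19.7 FPKM (NS). Sensory receptor levels in NS_6, NS_7, NS_11 and NS_12 were 96.2%, 95.3%, 102% and 14.3%, while NS_13 and NS_16 were at 3.95% and 2.74%. NS_7 and NS_11 had no read of Snap25, and NS_6 had 1.66 FPKM. Among the LS cells, LS_9 was at 29.3% and LS_39 had no read of Snap25. Without the unmarked cells, of which 1 of 5 had a read of Chrm1 (1.32 FPKM in NS_15), no GABA-marked or glutamate-marked NS cell lacked it.

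Among the GABA-marked cells, 3 LS cells had reads of Vip, a peptide of interneurons that inhibit other interneurons. LS_15 had 5266 FPKM of Vip and no read of Chrm1, LS_39 had 211 FPKM of Vip and 1 read of Chrm1, and LS_9 had 36.1 FPKM of Vip and 62.8 FPKM of Chrm1. NS_16, with the highest Chrm1 of the class, had the peptide Sst at 9164 FPKM, and NS_12, with 0.88 FPKM of Chrm1, had the peptide Npy at 6336 FPKM. The markers of NS_16 were mixed, with 28.8 FPKM of Slc17a7 beside 51.1 of Gad1 and 324 of Gad2. It had no read of Neurod2, so the filter on excitatory with inhibitory markers did not remove it. These are values of individual cells and not of subclasses.

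Chrm1 made up 84.7% of the summed mean FPKM of the 10 genes in LS cells and 43.2% in NS cells, and it was the highest of the 10 in 28 of 35 LS and 5 of 12 NS cells. In LS cells it exceeded the next gene in the order, Chrnb2, by 117 ± 123 FPKM (mean and SD of the difference within a cell) and was above it in 30 of 35 cells. The rest of the order in LS cells ran Chrnb2 (9.65 FPKM), Chrm3 (4.55), Chrm5 (2.87), Chrna4 (1.90), Chrm4 (1.68), Chrna3 (1.45), Chrm2 (0.37), Chrna7 (0.29) and Chrna5 (0). In this order every difference between neighbours was smaller than its SD between cells. In NS cells, too, each neighbouring difference was smaller than its SD or 0.

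The genes whose level followed Chrm1 most closely over the 35 LS cells were Rtn1 (Pearson r = 0.84 of log2(FPKM + 1)), Snap25 (0.82) and Ncdn (0.81), all genes used by neurons in general. They were picked from 6121 genes read in at least 50% of these cells, whose 99th percentile was 0.71, and genes of 1 cell share its library, so the values are a description. The r of Chrm1 with log2 of the reads of a cell was 0.21.

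**Figure D3:**
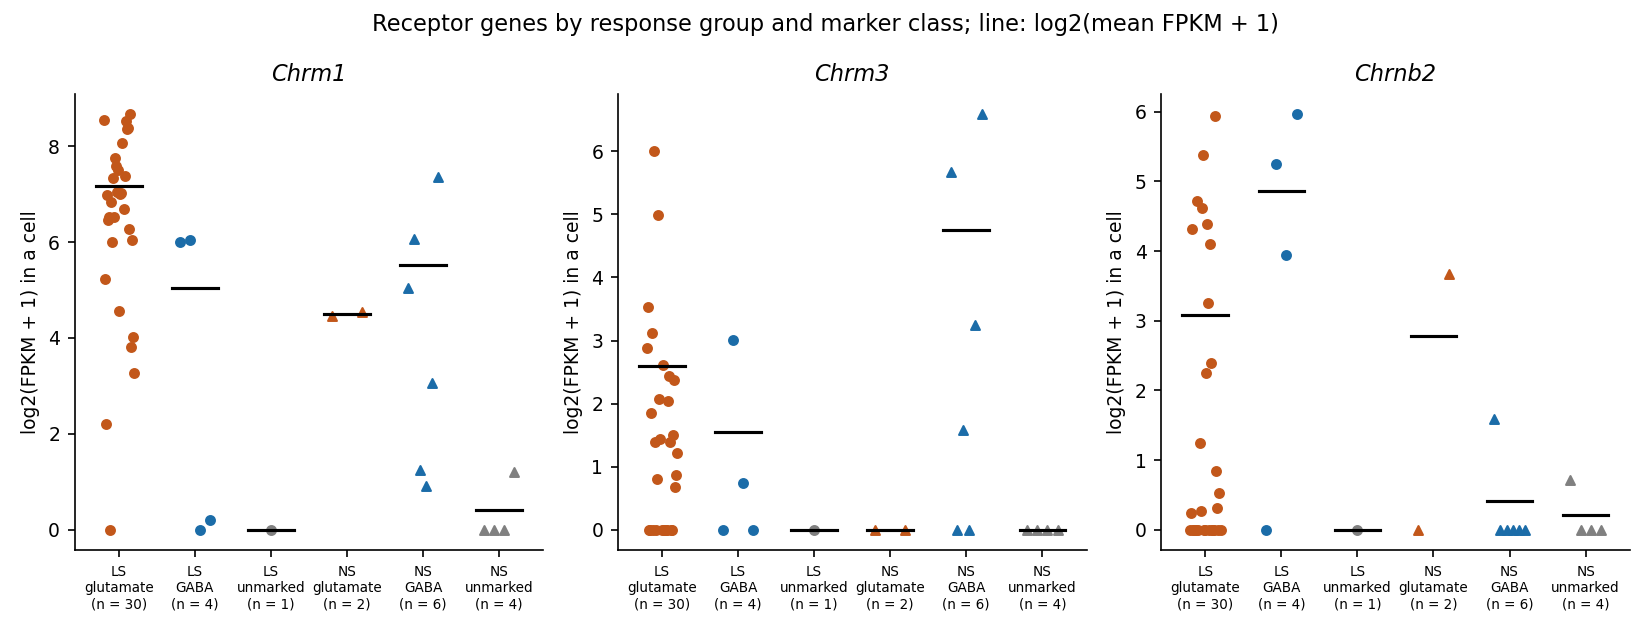
Chrm1, Chrm3 and Chrnb2 by response group and marker class, 1 point a cell on a log2(FPKM + 1) scale, with lines at log2 of the mean FPKM plus 1. For Chrm1 the glutamate-marked LS cells reach 405 FPKM, while GABA-marked cells run from 0 to 64.5 FPKM in LS and from 0.88 to 162 FPKM in NS cells.

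Chrm3, which encodes the other Gq-coupled muscarinic receptor of the cortex, was low and patchy. It lies on chromosome 13 (chr13:9875486-10360847, minus strand). Its FPKM over the LS cells had a lowest value of 0, a median of 0.83 and a highest of 63.4, in LS_17, and over the NS cells a lowest of 0, a median of 0 and a highest of 95.2, in NS_16. It was read in 21 of 35 LS cells (60%, interval 42.1 to 76.1) and, among NS cells, 4 of 12 (33.3%, 9.92 to 65.1), or an expected 48.5% and 32.2% at 140000 reads. The mean nevertheless was lower in LS (4.55 ± 11.6 FPKM, SD) than in NS cells (12.97 ± 29.6, SD), at a log2 ratio of -1.51. That mean rested on NS_16 and on NS_6 at 49.96 FPKM, and without NS_16 the log2 ratio was -0.27, short of 2-fold. The direction also turned on the scale, since the difference of mean log2(FPKM + 0.1) was 0.58. All 4 NS cells with Chrm3 were GABA-marked (mean 25.9 ± 38.96 FPKM, SD, n = 6), though NS_16 also had reads of Slc17a7. In LS cells the glutamate-marked cells had a mean of 5.05 ± 12.5 (SD, n = 30) and the GABA-marked cells 1.94 ± 3.44 (SD, n = 4). Chrm3 was nearly always found beside Chrm1, but Chrm1 was read in 41 of the 47 kept cells (87.2%), so this pairing does not set Chrm3 apart. Over the 47 cells both were read in 24, Chrm1 without Chrm3 in 17 and Chrm3 without Chrm1 in 1 cell, LS_15.

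The closest genes to Chrm3 over LS cells included Exoc8 and Mdm4 at r of 0.59 and 0.58, which for a gene at 0 in 14 of the 35 cells is weak.

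Chrm5, the third Gq-coupled gene, was read in 2 LS cells and no NS cell. It had 97.4 FPKM (102 reads) in LS_4 and 2.96 FPKM (14 reads) in LS_41, both glutamate-marked. The mean of 2.87 ± 16.5 FPKM (SD, n = 35) thus came mostly from LS_4. That cell had a sensory receptor level of 18.1%, and 3.90 FPKM of Gad2 beside 16.1 of Slc17a7. LS_41 was weakly marked, with 0.57 FPKM of Slc17a7 and 0.75 of Neurod2. In the 31 LS cells with a sensory receptor level under 10% the Chrm5 mean was 0.095 FPKM. The gene (chr2:112479171-112480769, minus strand) has an annotated exon length of 1599 bases, all of it coding, so reads from untranslated parts of its mRNA would not have been counted. The same holds for Chrm4 (chr2:91927249-91928688, plus strand) with 1440 bases.

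Chrm4 and Chrm2 encode the Gi/o-coupled receptors and were rare. Chrm4 was read in 3 LS cells, at 32.4, 17.2 and 9.13 FPKM (39, 15 and 37 reads), all glutamate-marked, and in no NS cell. Chrm2 (chr6:36388084-36528414, plus strand) was read in 3 glutamate-marked LS cells, at 8.11, 4.46 and 0.22 FPKM, and in NS_9 at 12.9 FPKM. No GABA-marked cell of either group had a read of Chrm2, Chrm4 or Chrm5. With 10 such cells the exact interval of the share reaches 30.8%. The shares in the 32 glutamate-marked cells were 12.5%, 9.4% and 6.25%, so no class difference can be read from this. For 0 of 12 NS cells the exact interval of the share reaches 26.5%, so a rare presence in NS cells was not detectable. Against a floor of 3 reads over the NS cells, the pooled LS level was 3.82-fold for Chrm4 and 4.87-fold for Chrm5, the latter mostly from LS_4. These ratios rest on reads of 3 and 2 LS cells and leave out the spread between cells. They set no lower limit to a difference between the groups.

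**Figure D4:**
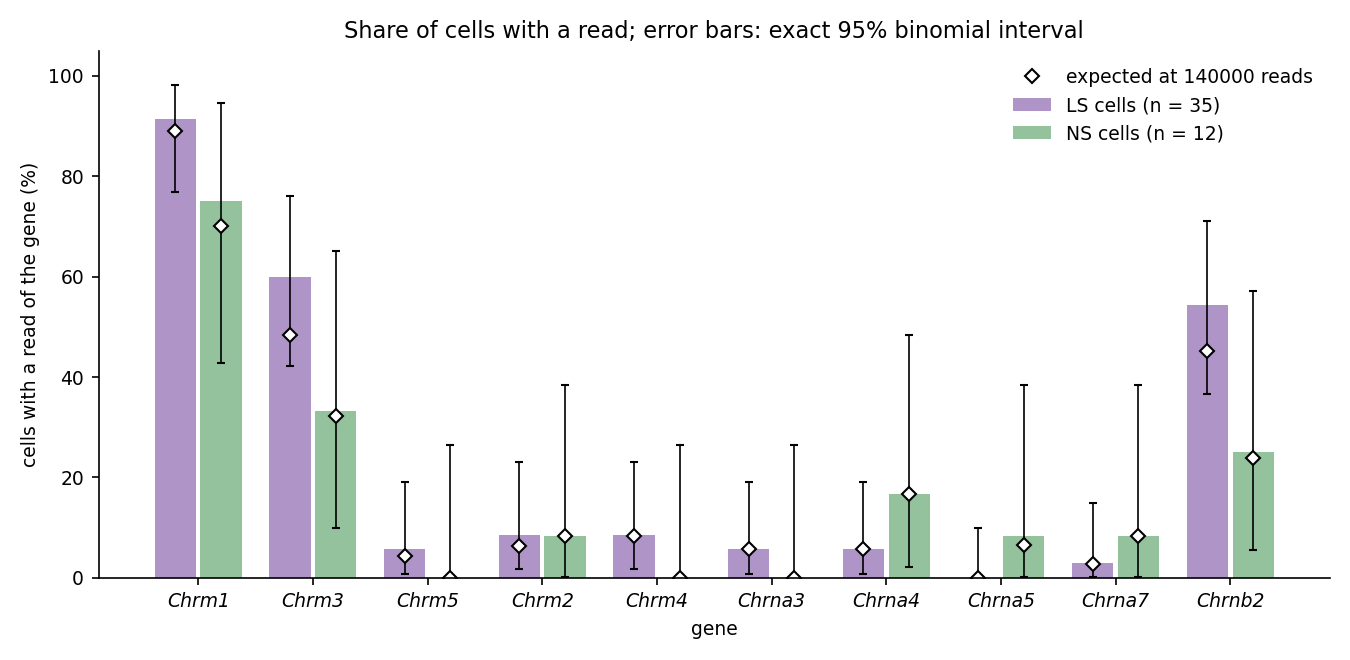
Share of LS (n = 35) and NS (n = 12) cells with a read of each gene in %, with exact 95% binomial intervals as error bars; diamonds give the share expected with every cell at 140000 reads. Chrm1, at 91.4% of LS and 75% of NS cells, is the most widely read gene in both groups.

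Chrnb2, the beta subunit of the main cortical nicotinic receptor, was the most widely read nicotinic member. It lies on chromosome 3 (chr3:89746195-89764632, minus strand) and shares exon sequence with Adar, as given above. Over LS cells the lowest FPKM was 0, the median 0.20 and the highest 61.5. Over NS cells it was 11.7 in NS_9, 2.02 in NS_6, 0.64 in NS_2 and 0 in the other 9. Reads were present in 19 of 35 LS cells (54.3%, interval 36.7 to 71.2) and, among NS cells, 3 of 12 (25%, 5.49 to 57.2), or an expected 45.2% and 23.9% at 140000 reads. The mean was 9.65 ± 16.9 FPKM (SD) in LS and 1.196 ± 3.36 (SD) in NS cells, a ratio of 8.07 (log2 3.01), with 3493 reads against 53. NS_9 held 49 of the 53, and without it the log2 ratio was 5.32. Of the 12 NS cells 1 was above 10 FPKM, as were 10 of the 35 LS cells.

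In LS cells Chrnb2 leaned to the GABA-marked class, against Chrm1. The 4 GABA-marked LS cells had 61.5, 37.1, 14.4 and 0 FPKM, a mean of 28.2 ± 26.9 (SD), and the 30 glutamate-marked cells had a lowest value of 0, a median of 0.19 and a highest of 60.4, with a mean of 7.50 ± 14.3 (SD). LS_39 and LS_15, with 1 read and no read of Chrm1, were among those with Chrnb2. LS_39, which held the 61.5 FPKM, was weakly marked, with 9.25 FPKM of Gad1 and no read of Gad2 or Snap25. The log2 ratio of glutamate-marked over GABA-marked LS cells was -1.91, and -1.19 without LS_39. In the GABA-marked NS cells, however, Chrnb2 had a read in 1 of 6, at 2.02 FPKM, and the log2 ratio of LS over NS in that class was 6.39. Between glutamate-marked cells of the groups it was 0.36, with 2 NS cells. The genes closest to Chrnb2 over LS cells were Auh, Nagk and Smyd5, at r of 0.57, 0.55 and 0.53.

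Over all members, 7 had a mean of at least 1 FPKM in the marked LS cells. In that comparison 47.8% of 13520 genes were at least 2 times higher in the glutamate-marked and 19.8% in the GABA-marked cells, and the median log2 ratio was 0.83. Of the 7, the 4 higher in glutamate-marked cells were the muscarinic genes Chrm1 (log2 ratio 2.17), Chrm3 (1.38), Chrm4 and Chrm5, and the 3 higher in GABA-marked cells were the nicotinic genes Chrna3 (-4.20), Chrna4 (-5.86) and Chrnb2 (-1.91). The values of Chrna3 and Chrna4 in GABA-marked LS cells were those of 1 cell, LS_9, and without it 1 of the 7 genes, Chrnb2, was higher in that class. With the marked NS cells added, where 39.9% of 15423 genes were higher in glutamate-marked and 27.2% in GABA-marked cells, the Chrm3 ratio turned to -1.79.

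Chrna4, the alpha partner of Chrnb2, was read in 4 cells. It lies on chromosome 2 (chr2:181018380-181043546, minus strand). The LS values were 58.8 FPKM in LS_9 and 7.58 in LS_28, and the NS values 92.8 in NS_9 and 20.5 in NS_4. The mean was 1.90 ± 9.98 FPKM (SD) in LS and 9.44 ± 26.9 (SD) in NS cells, a log2 ratio of -2.32 that became 0.023 without NS_9. Chrna4 and Chrnb2 were read in the same cell in LS_28 and NS_9 only, so 20 of the 22 cells with Chrnb2 had no read of Chrna4.

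Chrna7, whose subunits can form a channel by themselves, was read in 1 cell of each group. It lies on chromosome 7 (chr7:63098692-63212569, minus strand). LS_38 had 10.3 FPKM (32 reads) and NS_2 had 115 FPKM (45 reads). Both also had Chrnb2, at 751 reads in LS_38 but 1 read in NS_2, within the floor of 3 reads. The LS mean of 0.29 FPKM and the NS mean of 9.58 FPKM are therefore each the value of 1 library, and the log2 ratio of -5.02 compares those libraries.

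Chrna3 and Chrna5 lie side by side on chromosome 9 (chr9:55010111-55026562, minus strand, and chr9:54980880-55007779, plus strand). Chrna3 was read in LS_9 at 35.98 FPKM and LS_4 at 14.7 FPKM, and in no NS cell. These 2 LS cells had sensory receptor levels of 29.3% and 18.1%. The pooled LS level of Chrna3 was 3.40-fold that of a floor of 3 reads over the NS cells. Resting on 2 cells, that ratio sets no lower limit to a difference either. Chrna5 was read in no LS cell and in NS_7 at 1.79 FPKM, about 1 read, which is within the floor of 3.

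Most nicotinic values of the NS group came from libraries without a read of Snap25, as 7 of the 12 NS libraries were. NS_2, NS_4 and NS_9 had sensory receptor levels of 29.6%, 25.6% and 46.6% and no read of Snap25, and NS_2 and NS_4 had no read of Slc17a7, Neurod2, Gad1 or Gad2. In the 5 NS cells with a read of Snap25, the nicotinic members came to 2.02 FPKM of Chrnb2 in NS_6 and 0 elsewhere, while Chrm1 had a mean of 40.4 ± 69.1 FPKM (SD) and Chrm3 one of 30.7 ± 41.5 (SD). With LS cells held to the same condition, the log2 ratio of Chrm1 was 1.77 and that of Chrnb2 4.42, where the median of all genes was 2.10. NS_14, counted among the 5 NS cells, had 1 read of Snap25 (0.19 FPKM), within the floor of 3 reads, and no read of any member. In the 3 NS cells with a sensory receptor level under 10%, Chrm1 was at 162, 7.30 and 0 FPKM and no nicotinic member had a read. LS_9, which carried Chrna3 and Chrna4, had the highest sensory receptor level of the LS cells, 29.3%. The part of these levels in the values was not tested.

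Per cell, a median of 2 of the 10 genes was read in either group, with up to 5 in LS and up to 4 in NS cells. A muscarinic gene was read in 33 of 35 LS and 9 of 12 NS cells, and a nicotinic member in 20 and 5. No member was read in LS_13, LS_43 or NS_14, of which LS_13 was glutamate-marked. Summed muscarinic FPKM had a median of 102 in LS and 9.59 in NS cells, and summed nicotinic FPKM 0.45 and 0.

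The other genes of cholinergic signalling came from 7 lists with 52 genes at a mean of 1 FPKM or more. Of these, 19 were at least 2 times higher in LS and 20 in NS cells. Among all genes the shares were 34.4% and 36.8%, so these counts do not set the lists apart. Channels under muscarinic control had the highest median log2 ratio of the lists, 2.74, against -0.10 for all genes. Of these channels 7 of 8 were higher in LS and 1, Trpc1, in NS cells. Kcnj3, Kcnj9, Kcnq5 and Trpc5 were each read in 1 NS cell and Kcnj6 in 2. What part the NS libraries have in this was not tested. Kcnj9, a subunit of G protein-gated potassium channels, had 6.93 and 0.33 FPKM. Trpc1 had 3.56 FPKM in LS and 9.77 in NS cells, of which NS_16 had 96.9 FPKM by itself.

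Among RGS proteins, which switch G proteins off, and receptor kinases, 5 of 8 were higher in LS and 2 in NS cells. Rgs4 averaged 104.6 FPKM (LS) and 40.4 FPKM (NS), and Rgs2 had 40.7 and 0.34. Adrbk1, the older symbol of a kinase of these receptors, had 57.7 and 10.5. On the Gq side, 3 of 9 were higher in LS and 1 in NS cells, with a median log2 ratio of 0.63. Prkcb, a protein kinase C, had 55.3 FPKM in LS and 28.3 in NS cells, short of 2-fold, and Gna11, an alpha subunit of the Gq class, had 13.5 and 86.2, of which NS_11 had 803 FPKM. On the Gi/o side, 2 of 8 were higher in LS and 3 in NS cells (median -0.73). Gnai2 and Gnao1 had 34.3 and 31.6 FPKM in LS and 52.1 and 56.5 in NS cells, and Gnai1 had 45.8 and 0.65.

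Of 8 further nicotinic subunits 7 were higher in NS and none in LS cells (median log2 ratio -2.73), but each was read in 1 or 2 NS cells. Chrng, a subunit of the muscle receptor, reached its NS mean of 34.9 FPKM through 418 FPKM in NS_2. Chrna2 reached 24.04 FPKM through NS_11 alone, and Chrnb4 16.2 through 2 cells. Of 4 genes of acetylcholine synthesis and breakdown 3 were higher in NS cells. Chat, which makes acetylcholine, and Bche, which breaks it down, had 0.40 and 2.23 FPKM in LS and 27.6 and 19.2 in NS cells, each read in 2 NS cells. Ache, the main esterase, had 11 and 6.26 FPKM. Of 7 chaperones and modulators of nicotinic receptors, 2 were higher in LS and 3 in NS cells. Ly6e had 153 and 175 FPKM, Ly6h 57.5 and 10.6, and Tmem35, the older symbol of a chaperone of nicotinic receptors, 17.1 and 9.24.

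**Figure D5:**
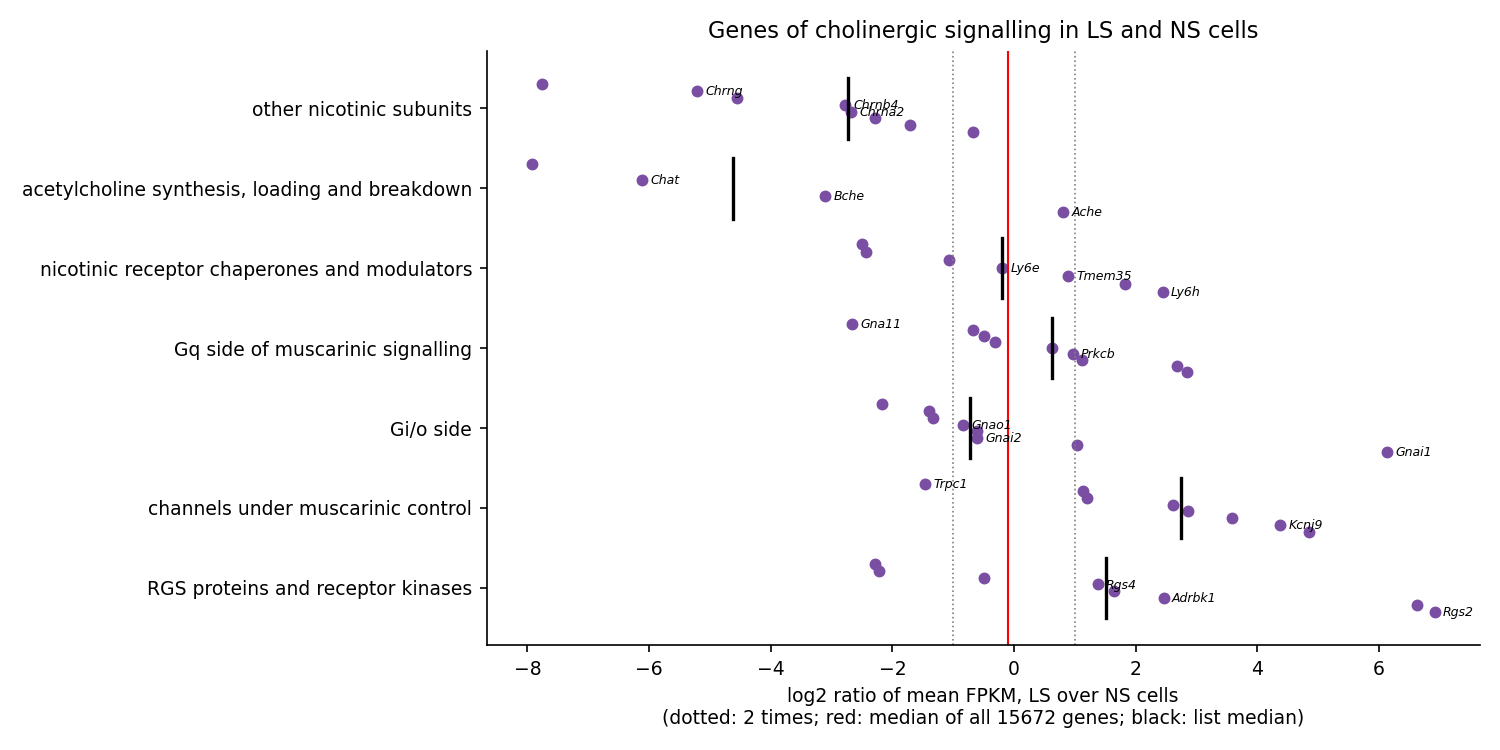
Log2 ratio of mean FPKM, LS over NS cells, for the 52 further genes of cholinergic signalling by list, with names for the genes described in the text; the red line is the median of all 15672 genes (-0.10), black lines are list medians and dotted lines mark 2-fold. Channels under muscarinic control have a median of 2.74 and the other nicotinic subunits one of -2.73.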

How the data were processed

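RNA of 63 patched V1 cells (46 LS, 17 NS) was analysed. Per the study's methods, the authors trimmed paired reads with AfterQC, aligned them to GRCm38 with STAR 2.5.3a, counted them with featureCounts and normalised them in scater, and the deposited table holds FPKM of 20183 protein coding genes, in spite of being named as counts. Read numbers were recovered here from the steps between FPKM values and the GENCODE M21 exon lengths. For 12104 genes that length gave whole reads, for 6390 a length was solved from the values, and 1685 genes were not solved. The genes with reads recovered hold 99.2% of all nonzero values, and 4 rows with repeated names were left out. Chrna5 was not solved, so its 1 read is approximate.

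The study's filters were applied in turn: low cDNA, fewer than 1000 genes above 1 FPKM, over 25% mitochondrial signal, and products of astrocyte, oligodendrocyte and of excitatory with inhibitory markers. They removed 16 cells and left 47, fewer than the study kept. Groups and numbers came from the labels, which name no mouse, so no test was run. Instead the ratio of mean FPKM was given for genes averaging 1 FPKM or more, with 2 times as the mark, exact intervals for shares and reads, and shares expected at 140000 reads. Named genes were the 10 members, the 3 genes most like each widely read member, the 3 highest of each list, and listed genes past 2 times that a sentence needed. Some genes that this rule names are not reported here. The members and lists were chosen with earlier results of these data known. Calculations were run with scipy 1.17.1, pandas 2.3.3 and numpy 2.4.6 under Python 3.11.15, figures with matplotlib 3.10.9, and the steps were tested on simulated data. Alternatives were other scales, cell filters, marker classes, thinning and each cell left out. The set of cells with a Snap25 read and the GABA-marked set without NS_16 were chosen after seeing the data.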

Additional observations from a re-analysis of the deposited data

Results flagged for a closer look

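In the marker classes of 4 to 6 cells, 13 sets of values with any read were examined for a cell far from the others, by the gap to its nearest neighbour against the whole range. In 9 of them a cell stood apart by a mark meant to be passed about 1 in 20 times by chance. In 8 of the 9 it was the 1 cell of its class with a read, which passes the mark at any level. That rate therefore does not hold here, and the count of 9 cannot be set against it. Among GABA-marked LS cells these were LS_14 for Chrm3 (7.08 FPKM, next 0.67), and LS_9 for Chrna3 (35.98 FPKM) and Chrna4 (58.8 FPKM). Among GABA-marked NS cells they were NS_7 for Chrna5 (1.79 FPKM) and NS_6 for Chrnb2 (2.02 FPKM). Among unmarked NS cells they were NS_15 for Chrm1 (1.32 FPKM), NS_4 for Chrna4 (20.5 FPKM), and NS_2 for Chrna7 (115 FPKM) and Chrnb2 (0.64 FPKM).

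The 16 cells removed by the filters also held reads of 8 members. There were 3714 reads of Chrm1 in 11 cells, 169 of Chrnb2 in 6, 102 of Chrm3 in 4, 70 of Chrna4 in 3 and 6 of Chrna7 in 2. Chrm4 had 42 reads in LS_36, Chrm5 30 reads in LS_5 and LS_8, and Chrm2 15 reads in NS_17. The mean of Chrm1 in these cells was 37.4 ± 37.3 FPKM (SD, n = 16 cells).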

How the results depend on the processing

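No paired analysis was possible because the numbers of the cells in the labels only count them within a group and no test was run. The members higher in LS cells numbered 5, and 2 on either log scale (pseudocount 1 or 0.1), 3 in cells with a sensory receptor level under 10% (where 69.1% of all genes were higher in LS), 3 in GABA-marked cells with or without NS_16, 6 in cells with a Snap25 read (57.8% of all genes), and 3 (without LS_4) to 5 with each cell left out. Those higher in NS cells numbered 3, and 0 with pseudocount 1, 5 with no filter on the mean, 2 to 3 with each cell left out, and 1 each with pseudocount 0.1, in cells of low receptor level, in glutamate-marked cells, in GABA-marked cells with or without NS_16, and in cells with a Snap25 read. Between marker classes, the 4 members higher in glutamate-marked cells became 1 on either log scale, 6 with no filter on the mean and 3 to 4 with each cell left out, and the 3 higher in GABA-marked cells became 1 without LS_9 and 3 at most. The 3 members read in at least 50% of LS cells became 1 at a minimum of 1 FPKM and 1 at 140000 reads. The sign turned for Chrm1 in GABA-marked cells (-0.50, but 0.56 without NS_16), for Chrm3 with pseudocount 0.1 (0.58) and between classes with NS cells added (-1.79), and for Chrna4 without NS_9 (0.023, and -5.40 without LS_9). The log scale also moved the split of all genes, from 34.4% higher in LS and 36.8% in NS to 29.1% and 6.15% with pseudocount 1. For most of the other settings, and for the marker classes, that split is not given beside the counts. The counts of members above can therefore not be read as results about the receptors. Chrm1 kept its direction with each cell left out (2.14 to 3.18). The causes were not tested. The number of NS cells, 12, and their depth limit what could be seen there.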

Other observations

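Of 9 genes of the Gq side in LS cells, 6 were at least 2 times higher in the 30 glutamate-marked than in the 4 GABA-marked cells and none was lower by that mark, with a median log2 ratio of 2.17. Over all genes 47.8% were higher in glutamate-marked cells and the median was 0.83. Gnaq, the alpha subunit of Gq, averaged 13.4 and 1.02 FPKM, and Plcb1, a phospholipase C, 12.6 and 1.42 FPKM. On the Gi/o side 3 of 8 were higher in glutamate-marked and 2 in GABA-marked cells, among them Adcy5, an adenylyl cyclase, at 3.06 and 19.1 FPKM. The lean to glutamate-marked cells was not particular to the Gq side. Channels under muscarinic control had 5 of 8 higher there (median 1.70), and RGS proteins and receptor kinases 5 of 8 (1.76). Neither list had a gene higher in GABA-marked cells. Over all lists 24 of 48 were higher in glutamate-marked and 6 in GABA-marked cells. Ache, the esterase that ends the action of acetylcholine, averaged 6.26 FPKM in glutamate-marked and 49.3 FPKM in GABA-marked cells. These genes were named after their values were seen, and with 4 GABA-marked cells the values are a description.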
